A study of Homo sapiens and Mus musculus with 8 samples.

Results

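The SOX genes encode transcription factors with a shared HMG box, and 10 of them (SOX1, SOX2, SOX4, SOX5, SOX6, SOX8, SOX9, SOX11, SOX12 and SOX13) were taken by symbol, ignoring case, from the gene tables of 2 small cell lung cancer lines. All 10 were present in the human table, which lists 20863 genes, and all 10 in the mouse table, which lists 16833. The human line is NCI-H146, called H146, and the mouse line is F1339, each represented by a single cell line grown in culture. RNA came from cells given decitabine at 0.5 µM (96 h in H146, 72 h in F1339), 2 libraries per line, and from cells given vehicle, also 2 libraries per line. Decitabine is a deoxycytidine analog that is built into DNA and traps the maintenance methyltransferase DNMT1 there, so that methylation of CG sites is lost as cells divide. The study's stated hypothesis was that such cells, once depleted of DNMT1, exit the cell cycle by maturing. The vehicle is not named in the labels.

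SOX proteins bind short AT-rich DNA sites in the minor groove, bend the DNA and act together with a partner factor bound next to them, often a POU protein. They fall into subgroups by sequence. SOX1 and SOX2 (SOXB1) keep neural progenitors dividing, and SOX2 is amplified in part of human small cell lung cancers. SOX4, SOX11 and SOX12 (SOXC) are on in early neurons, where they drive neuronal genes. SOX5, SOX6 and SOX13 (SOXD) have no activation domain of their own and modify the action of other SOX proteins. SOX8 and SOX9 (SOXE) act in neural crest, glia and cartilage, and SOX9 also marks progenitors at the tips of the developing lung.

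The promoter windows of SOX members that rose in H146 are shown because decitabine acts at CG sites, which are in capitals. Each window runs from 250 bases before to 50 after a gene start in RefSeq (GRCh38.p14), and a window was matched for 7 of the 10 members (not for SOX8, SOX9 and SOX11). SOX12, which was not called, is shown beside them because its window holds the most CG sites of the 7 members with a window. SOX21 is shown because its window shares 270 bases with that of its divergent neighbour SOX21-AS1. Sequences read 5′ to 3′ on the strand of the gene.
SOX1: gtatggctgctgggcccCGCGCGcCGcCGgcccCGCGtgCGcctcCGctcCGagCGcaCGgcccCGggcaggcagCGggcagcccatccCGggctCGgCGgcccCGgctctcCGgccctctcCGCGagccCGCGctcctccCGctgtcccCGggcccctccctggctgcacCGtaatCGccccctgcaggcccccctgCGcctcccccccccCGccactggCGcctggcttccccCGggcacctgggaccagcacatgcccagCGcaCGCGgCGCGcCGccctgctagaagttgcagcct
SOX2: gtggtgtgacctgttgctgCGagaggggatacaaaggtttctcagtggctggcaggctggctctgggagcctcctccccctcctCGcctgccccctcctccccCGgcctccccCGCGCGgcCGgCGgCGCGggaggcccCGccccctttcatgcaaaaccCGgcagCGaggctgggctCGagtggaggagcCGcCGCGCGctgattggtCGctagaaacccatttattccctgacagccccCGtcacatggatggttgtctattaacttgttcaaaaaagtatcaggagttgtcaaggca
SOX4: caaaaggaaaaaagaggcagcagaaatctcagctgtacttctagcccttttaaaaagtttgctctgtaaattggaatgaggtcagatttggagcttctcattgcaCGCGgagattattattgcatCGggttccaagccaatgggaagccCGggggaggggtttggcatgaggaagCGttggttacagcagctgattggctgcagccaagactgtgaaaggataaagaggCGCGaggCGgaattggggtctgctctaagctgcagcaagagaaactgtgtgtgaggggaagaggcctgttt
SOX13: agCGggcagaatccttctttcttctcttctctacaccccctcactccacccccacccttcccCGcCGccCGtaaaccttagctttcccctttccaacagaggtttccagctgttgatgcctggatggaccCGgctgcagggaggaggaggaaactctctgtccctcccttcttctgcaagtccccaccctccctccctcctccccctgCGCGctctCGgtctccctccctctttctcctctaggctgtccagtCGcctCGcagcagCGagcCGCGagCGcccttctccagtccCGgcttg
SOX12: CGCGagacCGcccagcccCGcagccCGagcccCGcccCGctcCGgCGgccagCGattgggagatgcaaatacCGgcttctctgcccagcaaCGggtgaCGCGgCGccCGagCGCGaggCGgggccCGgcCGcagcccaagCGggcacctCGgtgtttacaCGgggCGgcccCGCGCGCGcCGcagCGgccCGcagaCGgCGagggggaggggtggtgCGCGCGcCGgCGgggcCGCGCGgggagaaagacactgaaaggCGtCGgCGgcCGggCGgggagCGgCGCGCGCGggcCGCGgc
SOX21: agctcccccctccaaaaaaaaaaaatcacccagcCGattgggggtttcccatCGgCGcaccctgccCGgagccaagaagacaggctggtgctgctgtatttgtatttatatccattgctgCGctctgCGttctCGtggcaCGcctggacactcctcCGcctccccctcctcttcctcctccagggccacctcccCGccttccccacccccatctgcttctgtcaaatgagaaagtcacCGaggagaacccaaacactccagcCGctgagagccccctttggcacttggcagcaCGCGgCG

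The SOX1 window (chr13:112066899-112067198, plus strand) holds 37 CG sites, more than 88.7% of the 35116 RefSeq windows of the same length. SOX2 (chr3:181711675-181711974, plus) holds 20, SOX13 (chr1:204072865-204073164, plus) 15 and SOX4 (chr6:21593501-21593800, plus) 8, against a median of 14 over all windows. SOX12 (chr20:325302-325601, plus) holds 54, more than 99.5% of windows. The SOX21 window (chr13:94712496-94712795, minus) holds 15. In the GENCODE annotation the starts of SOX1 (112067647), SOX4 (21592768) and SOX21 (94712399) lie outside these windows. The SOX4 window lies within the SOX4 exon there. The CG numbers of these genes therefore depend on the annotation. The number of CG sites ran from 8 to 37 among the 4 members that rose and have a window. Among members not called it was 54 for SOX12, 29 for SOX5 and 0 to 22 for the SOX6 windows. Whether the number of CG sites bears on the rises was not tested. The SOX core motifs ACAAAG and ACAATG were searched on both strands. Of these 6 windows, ACAAAG was found once, in that of SOX2 at base 31, and ACAATG in none. Windows of members not shown held more. That of SOX5 held ACAATG 2 times. The SOX6 window at chr11:16356497-16356796 held ACAAAG 3 times and ACAATG 1 time, and that at chr11:16402814-16403113 held ACAATG 1 time. The other SOX6 windows held neither. ACAAAG is in 16.1% of all windows and ACAATG in 10.8%. Methylation itself was not measured in these libraries.

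Values are the authors' normalized counts, that is, reads per gene over a size factor for each library. The libraries hold 62462654 to 67108249 gene-assigned reads in H146 and 61364041 to 67892360 in F1339, so 1 read is about 1 normalized count. The 8 neuroendocrine markers reported here (INSM1, CHGA, CHGB, SYP, NCAM1, DDC, UCHL1, SCG3) were present in both tables. Their summed level was 250029 to 260920.0 with decitabine and 236692 to 237016 with vehicle in H146, and 208240.0 to 255152 with decitabine and 231315 to 294768 with vehicle in F1339. These sums are over part of the marker list and give no direction for neuroendocrine genes as a whole. In H146, 1 of the 8 rose (NCAM1) and 1 fell (CHGA). The H146 marker calls of this paragraph stand beside 15.4% of all genes tested called higher and 12.3% called lower. Some markers of other states and cell types also moved in H146. The non-neuroendocrine genes REST, YAP1, VIM, MYC and HES1 summed to 6455 to 6621 with decitabine and 9921 to 11835 with vehicle, without overlap. MYC made up most of these sums and fell, to 6119 and 5958 in decitabine libraries against 11462 and 9566 in vehicle libraries. HES1 rose 2.55-fold. The sums thus give no direction for the 5 genes as a set. Of these genes, 3 had a log2 difference above 0 and 2 below (median 0.08). The 3 fibroblast markers listed in the table of 4 sought (COL1A1, COL1A2, DCN; LUM is not in the table) summed to 650 to 703 with decitabine and 328 to 381 with vehicle, and 2 of them rose (COL1A1, COL1A2). The 2 of 3 endothelial markers in the table (PECAM1, CDH5) summed to 443 to 465 with decitabine and 61.2 to 97.5 with vehicle, and PECAM1 rose. PTPRC, the 1 immune marker of 3 in the table, stood at 285 to 317 with decitabine and 419 to 420.3 with vehicle, and fell. The 2 glial markers reported here, GFAP and S100B, summed to 8018 to 11618 with decitabine and 10201 to 11990.0 with vehicle, and 0 of them were called. The part of these genes in the SOX results was not tested. In F1339 the libraries numbered 2 stood apart from those numbered 1 in both arms. There the same 5 non-neuroendocrine genes summed to 6151 in decitabine number 2 and 2235 in decitabine number 1, and to 2966 in vehicle number 2 and 977 in vehicle number 1. Vim made up most of these sums, at 5138 and 1738 in decitabine numbers 2 and 1, and 2381 and 798 in vehicle numbers 2 and 1. All 5 genes had a log2 difference above 0 (median 1.115), and 0 were called by limma. DESeq2 called Rest alone of them (adjusted p 0.0252). The 3 endothelial markers (PECAM1, CDH5, KDR) summed to 364 to 973 with decitabine and 166 to 331 with vehicle, and the 2 of 4 fibroblast markers in that table (COL1A1, DCN) to 195 to 332 with decitabine and 91.7 to 97.2 with vehicle. CD68, the 1 immune marker there, stood at 72.7 to 102 with decitabine and 47.5 to 99.5 with vehicle, and the glial marker GFAP at 68.8 to 74.9 with decitabine and 74.1 to 96.1 with vehicle. The part of these differences in the mouse SOX values was not tested. The labels do not say whether the libraries of an arm are separate cultures, so p-values measure the spread between these libraries, which may be technical.

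In H146, 5 of the 10 SOX members rose with decitabine and 0 fell. These were both SOXB1 genes, SOX1 and SOX2, the SOXC genes SOX4 and SOX11, and SOX13 of the SOXD subgroup. The largest of the rises, that of SOX1, was 1.88-fold, and the other 4 lay between 1.23- and 1.37-fold. Calls were made with limma on log2(value + 1) at a Benjamini-Hochberg adjusted p under 0.05 over 20783 genes, of which 15.4% were called higher and 12.3% lower, 27.7% in either direction. The median log2 difference over the 10 members was 0.24, against −0.01 over all genes tested. The arms did not overlap for any member (8 higher and 2 lower with decitabine), while 31.5% of all genes tested were higher and 30.6% lower without overlap, 62.1% together. Within both replicate numbers the direction was therefore the same for all 10, which follows from the separated arms and adds nothing to them. It was the same for 71.8% of all genes (35.9% higher and 35.9% lower). The 5 rises were also called by edgeR, which called 29.3% of all genes, and by DESeq2, which called 23.4%. No further member had an unadjusted p under 0.05 in limma, which 37.8% of all genes had. Without a variance trend in limma 1 member (SOX1) was called higher, while genes called higher over all tested went from 3198 to 1581. With a library left out not all of the 5 were called, and fewer genes were called over all tested as well. The log2 difference was then 0.85 to 0.97 for SOX1 and 0.28 to 0.38 for SOX2. It was 0.40 to 0.44 for SOX4, 0.41 to 0.49 for SOX11 and 0.27 to 0.32 for SOX13.

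**Figure D1:**
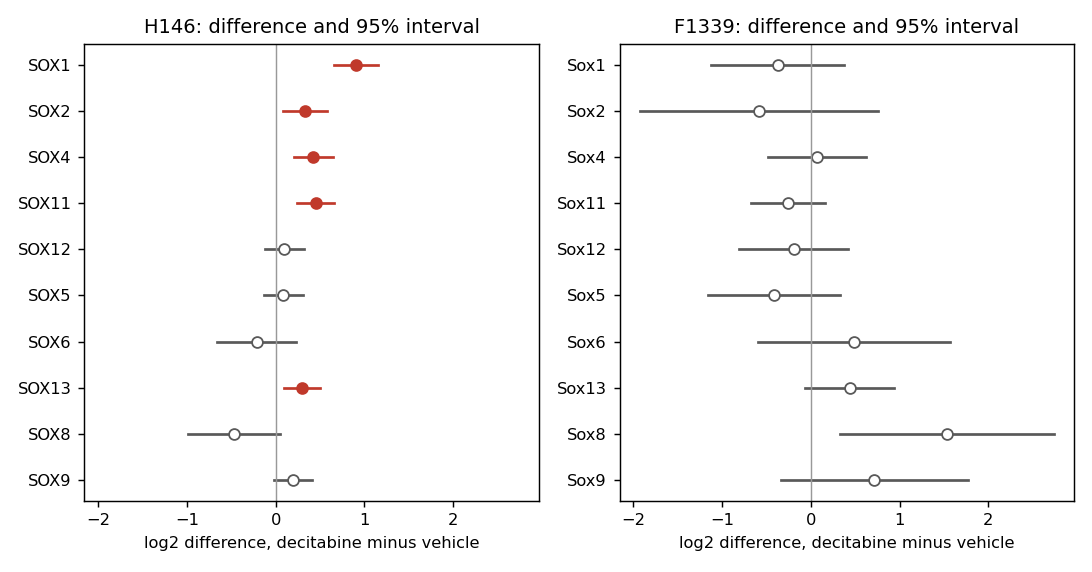
Log2 difference in SOX genes, decitabine minus vehicle, from limma (points) with its 95% interval (bars), in H146 (left) and F1339 (right), 2 libraries per arm. Filled red points passed an adjusted p of 0.05, which 5 genes did in H146 and 0 in F1339.

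SOX1, a factor of neural progenitors, had 1239 and 1135 normalized counts in decitabine libraries, against 637 and 626 in vehicle libraries of H146. Both decitabine libraries lay well above both vehicle libraries, and the spread within an arm was small beside the gap. The log2 difference was 0.91 ± 0.12 SE (adjusted p 2.3e-06, limma). SOX1 passed the threshold under every alternative run, with adjusted p between 9.5e-10 and 0.0238. The 3 tested genes nearest to SOX1 over the 4 libraries, by Euclidean distance of log2 values, were ZSCAN18 (distance 0.142), MYO18B (0.147) and FAM122C (0.152).

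SOX2, the pluripotency and neural progenitor factor, was at 46266 and 43143 in decitabine libraries and at 34648 and 36351 in vehicle libraries. Both decitabine libraries were above both vehicle libraries. The log2 difference was 0.33 ± 0.12 SE with an adjusted p of 0.0398 (limma), a 1.26-fold rise. With any of the 4 libraries left out the log2 difference was 0.28 to 0.38 and no longer passed (adjusted p 0.0619 to 0.285). SOX2 lies inside the long transcript SOX2-OT on the same strand, without shared exon bases in GENCODE. SOX2-OT had 11299 and 11477 in decitabine libraries and 10183 and 9392 in vehicle libraries and was not called (adjusted p 0.11), although it passed with libraries rescaled to the same upper quartile (adjusted p 0.0473).

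Among the SOXC genes, SOX4 and SOX11 rose by similar amounts. SOX4, which acts in early neurons and is often high in tumours, had 23814 and 23143 in decitabine libraries, against 17678 and 17354 in vehicle libraries. Its log2 difference was 0.42 ± 0.11 SE (adjusted p 0.0039, limma). SOX11, an early neuronal factor, had 16054 and 15285 in decitabine libraries, against 11539 and 11397 in vehicle libraries, a log2 difference of 0.45 ± 0.10 SE (adjusted p 0.0015, limma). For both genes the arms did not overlap, and the gap between them was wider than the spread within either arm. Without decitabine replicate 1, adjusted p was 0.0797 for SOX4 and 0.0559 for SOX11, and without decitabine replicate 2 it was 0.0535 for SOX4. Without a variance trend it was 0.0832 for SOX4 and 0.0767 for SOX11. SOX12, the third of the subgroup, stood at 18066 and 16935 in decitabine libraries and 16696 and 16015 in vehicle libraries. It was not called, and the 95% interval of its log2 difference was −0.12 to 0.31.

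Of the SOXD genes 1 of 3 rose. SOX13, which can bind and restrain TCF factors of the Wnt pathway, had 4099 and 4266 in decitabine libraries, against 3421 and 3398 in vehicle libraries, with a log2 difference of 0.29 ± 0.10 SE and an adjusted p of 0.0262 (limma). The vehicle libraries nearly coincided, and both decitabine libraries were higher. That call ended with any of the 4 libraries left out (adjusted p 0.0712 to 0.167) and without a variance trend (0.156). SOX5, a partner of SOX9 in cartilage, had 1588 and 1586 in decitabine libraries and 1560 and 1435 in vehicle libraries, with an interval of −0.14 to 0.31. SOX6, the close relative of SOX5, was sparse at 117 and 110.1 in decitabine libraries and 129 and 134 in vehicle libraries (interval −0.66 to 0.23). SOX6 shares 219 exon bases with C11orf58 on the opposite strand, which averaged 15502 with decitabine and 15348 with vehicle, so its low counts are uncertain. Neither was called, and their small gaps between arms lay within the error of the fit.

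Neither SOXE gene was called in H146. SOX9 had 4580 and 3948 in decitabine libraries and 3850 and 3592 in vehicle libraries, and its log2 difference of 0.19 had an interval of −0.02 to 0.41. SOX8 had 96 and 87 in decitabine libraries and 97.3 and 165 in vehicle libraries, so that 1 vehicle library alone stood high. Its log2 difference was −0.47 (interval −0.99 to 0.05, adjusted p 0.177, limma). Without vehicle replicate 1 it was −0.85 with an adjusted p of 0.0045, and without vehicle replicate 2 it was −0.09.

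**Figure D2:**
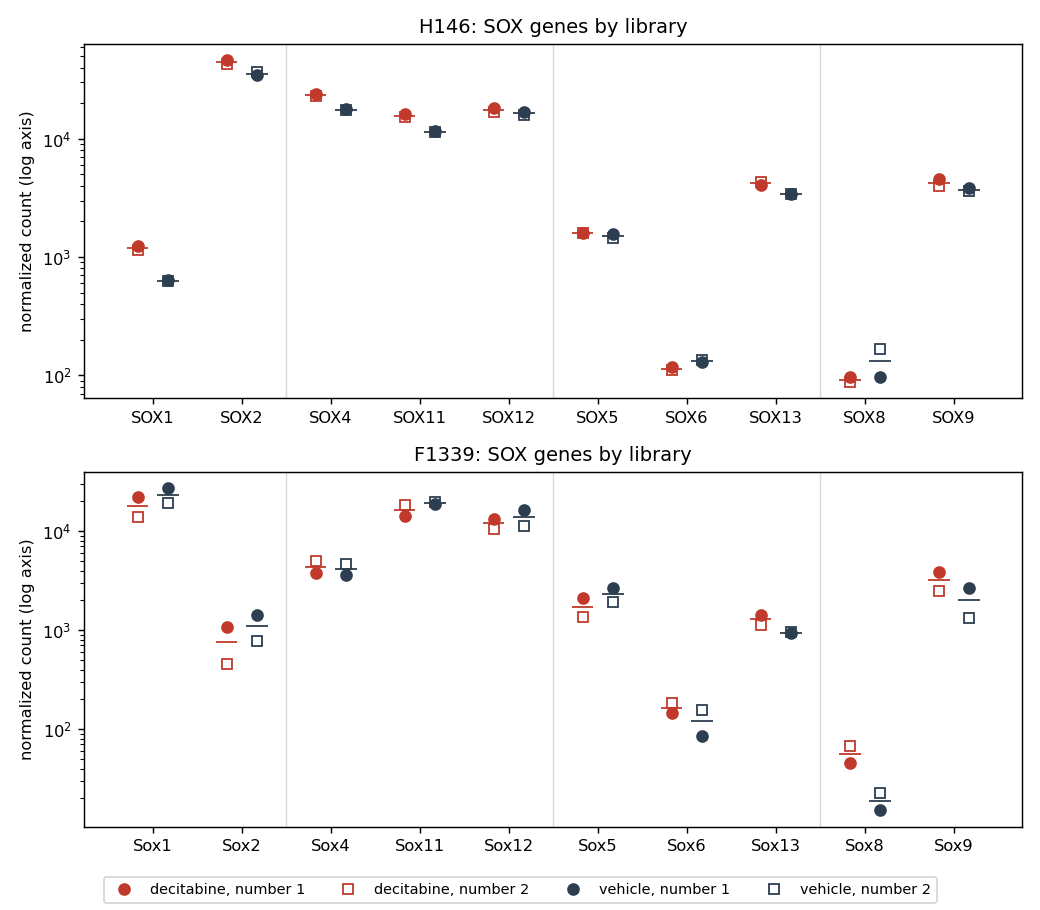
Normalized counts of the SOX genes in every library on a log axis, H146 above and F1339 below; filled circles are libraries numbered 1, open squares those numbered 2, and short lines arm means (n = 2). In H146 the libraries of an arm lie close together except the vehicle libraries of SOX8, whereas in F1339 the libraries numbered 1 and 2 differ by more than the arms do for genes such as Sox1 and Sox2.

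Per kilobase of exon (GENCODE release 29, GRCh38), SOX2 was the most abundant member in H146. It reached 18411 and 17168 normalized counts per kb in decitabine libraries and 13788 and 14465 in vehicle libraries. That is 59.8% to 60.3% of the summed level per kb of the 10 members with decitabine and 58.5% to 60.3% with vehicle. With vehicle, SOX12 (3459 to 3606 per kb) came next, then SOX4 (2966 to 3021), SOX11 (1307 to 1323), SOX9 (913 to 978), SOX13 (458 to 461), SOX1 (220.3 to 224), SOX5 (137 to 149), SOX8 (22 to 37.3) and SOX6 (6.59 to 6.85). With decitabine the order was the same except that SOX4 (3955 to 4069 per kb) stood above SOX12 (3658 to 3902). No neighbours in either order overlapped between libraries of an arm, although the gap between SOX4 and SOX12 with decitabine was narrow. SOX2 is on chromosome 3 (181711924 to 181714436, plus strand) and has a single exon, as do SOX1, SOX4, SOX11 and SOX12 in that annotation. The union of all annotated exons was used, which makes long genes with many isoforms such as SOX5 (10.4 kb) and SOX6 (19.6 kb) appear lower.

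**Figure D3:**
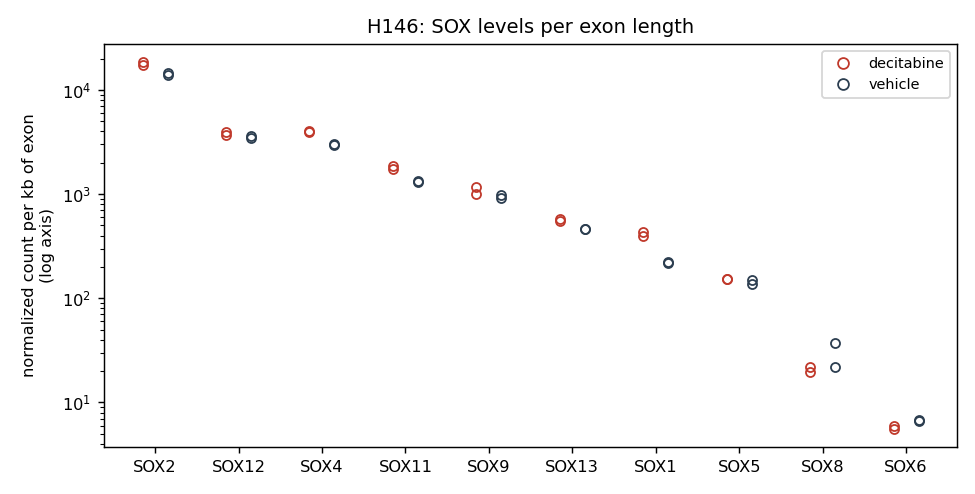
Normalized counts per kb of annotated exon for the 10 SOX genes in H146, on a log axis, each circle a library. SOX2 is highest in all 4 libraries, and SOX4 and SOX12 exchange places between the arms.

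Outside the 10 members, 3 of 9 further SOX genes were in the H146 table, and 2 of them rose. Over all genes tested, 15.4% were called higher and 12.3% lower. The lowest gene total in that table is 41 reads, so the absent genes may still have had some reads. SOX21, a SOXB2 factor that counteracts SOXB1 proteins during neuron formation, had 2678 and 3001 in decitabine libraries, against 951 and 1050.0 in vehicle libraries. This 2.84-fold rise (95% interval of the log2 difference 1.28 to 1.73, adjusted p 8.3e-11, limma) was larger than that fitted for any of the 10 members, a difference not tested. SOX21-AS1, the divergent transcript from the same region, had 1479 and 1628 in decitabine libraries and 740.2 and 684 in vehicle libraries (log2 difference 1.12 ± 0.12 SE, adjusted p 4.9e-08, limma). SOX15, a factor of muscle and trophoblast precursors in mouse, had 265 and 246 in decitabine libraries and 138 and 107 in vehicle libraries (2.09-fold, adjusted p 1.9e-04, limma). Its adjusted p was 0.0501 without decitabine replicate 1. SOX7 had 25 and 16.4 in decitabine libraries and 37.1 and 30.8 in vehicle libraries and was not called. It shares 39.4% of its exon bases with PINX1, so its reads are uncertain.

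SOX1 and the noncoding SOX1-OT went opposite ways in H146. SOX1-OT lies on the same strand as SOX1. Its GENCODE model (chromosome 13, 112107119 to 112108015) is downstream of SOX1, while its RefSeq start is upstream. The counted gene is listed under an Ensembl ID, and the release of the annotation that was counted is not given. It had 631 and 713 in decitabine libraries, against 993 and 1042 in vehicle libraries. It fell by 0.60 on the log2 scale (adjusted p 5.7e-04, limma), a call that ended without decitabine replicate 1 (adjusted p 0.0504) and without a variance trend (0.0592). SOX9-AS1, an antisense transcript that spans SOX9, had 274 and 300.5 in decitabine libraries and 252 and 247 in vehicle libraries and was not called. Of the 4 overlapping or neighbouring transcripts tested, 1 rose and 1 fell, beside 15.4% of all genes called higher and 12.3% called lower. The strandedness of the library is not given, but neither SOX2-OT nor SOX9-AS1 shares exon bases with its SOX gene in GENCODE.

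**Figure D4:**
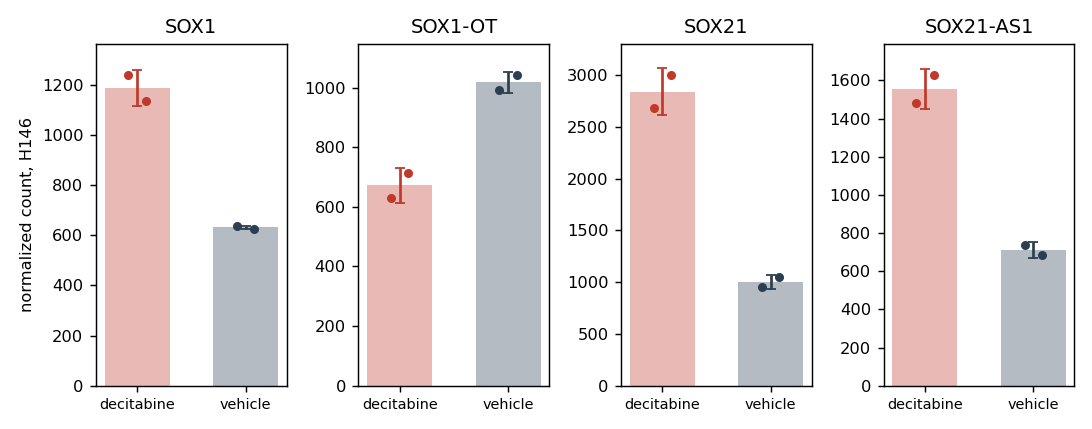
Normalized counts in H146 of SOX1 and SOX1-OT, and of SOX21 and SOX21-AS1; bars are arm means with SD (n = 2) and points single libraries. SOX1 is higher and SOX1-OT lower with decitabine, while SOX21 and SOX21-AS1 are both higher.

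Genes known as partners or targets of SOX proteins were read from lists chosen with earlier results of these data known. The counts below stand beside 15.4% of all genes tested in H146 called higher and 12.3% called lower, and nothing particular to a list is read from them. Of 9 partners and cofactors tested in H146, 1 rose and 0 fell (median log2 difference −0.02, against −0.01 over all genes). That gene is CTNNB1, the β-catenin gene, at 14615 and 16228 in decitabine libraries and 13222 and 10810.0 in vehicle libraries (adjusted p 0.016, limma). Its call ended without decitabine replicate 1 (adjusted p 0.0841), decitabine replicate 2 (0.232) or vehicle replicate 2 (0.252), and without a variance trend (0.206). Of 4 tested genes known to be driven by SOX2 and its partners, 3 rose and 0 fell (median 1.14). PROM1, the stem cell surface protein CD133, had 815 and 961 in decitabine libraries and 235 and 231 in vehicle libraries. NES, the intermediate filament of neural progenitors, had 5891 and 5579 in decitabine libraries and 3344 and 3081 in vehicle libraries. LIN28A, an RNA-binding protein that blocks let-7 maturation, had 92 and 103 in decitabine libraries and 29.1 and 43.1 in vehicle libraries, and lost its call without decitabine replicate 2 (adjusted p 0.0674). NES and PROM1 kept arms apart by more than the spread within them.

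Of 5 neuronal genes known to be driven by SOX4 and SOX11, TUBB3 alone rose in H146 and 0 fell (median 0.22). TUBB3, a neuronal β-tubulin, had 5633 and 5764 in decitabine libraries and 4011 and 3992 in vehicle libraries (log2 difference 0.51, adjusted p 2.6e-04, limma; 0.0585 without a variance trend). Of 8 cartilage genes known to be driven by SOX9 with SOX5 and SOX6, 3 rose and 0 fell (median 0.35), namely COMP, COL9A3 and COL9A2. COMP, a cartilage matrix protein, had 108 and 105 in decitabine libraries and 23.1 and 12.3 in vehicle libraries. COL9A2, a collagen IX chain, had 3282 and 2996 in decitabine libraries and 2034 and 2154 in vehicle libraries (adjusted p 0.0573 without a variance trend). COL9A3, another chain of that collagen, had 110.0 and 100.5 in decitabine libraries and 32.1 and 78 in vehicle libraries. Its call ended without decitabine replicate 1 (adjusted p 0.246), decitabine replicate 2 (0.183) or vehicle replicate 1 (0.241), when all libraries were brought to an equal total (0.0524), with DESeq2 (0.0912) and without a variance trend (0.215). Of 4 glial genes reported here that are known to be driven by SOX10 or SOX8, 1 rose and 0 fell (median −0.12). ERBB3, a neuregulin receptor, had 1647 and 1739 in decitabine libraries and 747 and 769 in vehicle libraries. SOX10 is not in the H146 table.

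In F1339, 0 of the 10 members passed the test by limma with treatment as the only term. Sox1 averaged 18157 with decitabine and 23217 with vehicle in F1339, whereas SOX1 averaged 1187 with decitabine and 632 with vehicle in H146. Sox2 averaged 765 with decitabine and 1100.3 with vehicle in F1339, against 44704 with decitabine and 35499 with vehicle for SOX2 in H146. The tables were normalized separately and the species and gene models differ, so these values are set side by side without a test, and levels of different mouse genes are not compared because no mouse gene lengths were used here. With limma 0 of 16680 genes were called in F1339 (0%), and 932 genes (5.59%) had an unadjusted p under 0.05, among them 1 member, Sox8. edgeR called 0 genes, and DESeq2 called 107 genes (0.641%) and 0 members. The median log2 difference was −0.06 over the members and −0.01 over all genes. The arms did not overlap for 2 members that were higher with decitabine (Sox8, Sox13) and 1 that was lower (Sox11), against 17.9% and 18% of all genes (35.9% together).

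The mouse SOX genes differed between the replicate numbers. In both arms Sox1, Sox2, Sox5, Sox9 and Sox12 were higher in the library numbered 1, and Sox4, Sox6, Sox8 and Sox11 were higher in that numbered 2. Within each number, decitabine and vehicle differed in the same direction for 10 of the 10 members, while this held for 68.6% of all genes tested (33.5% higher and 35% lower). Ratios of decitabine to vehicle within number 1 and within number 2 are given below as a description.

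**Figure D5:**
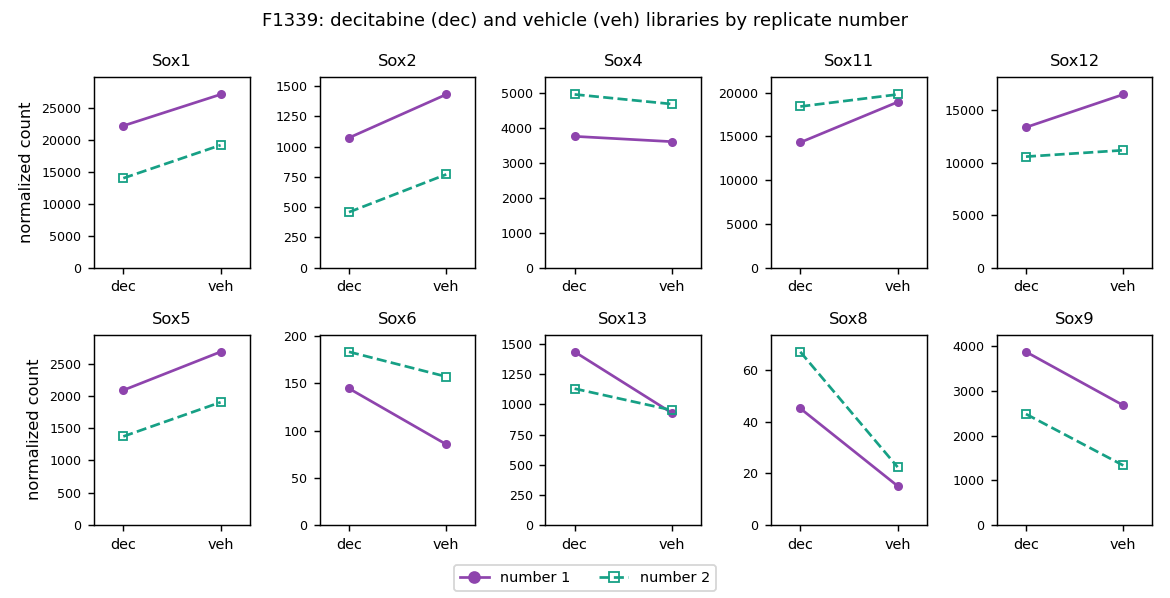
Normalized counts of the 10 SOX genes in F1339, decitabine (dec) left and vehicle (veh) right, joined within replicate number 1 (solid) and number 2 (dashed). The lines of a gene slope the same way in each panel, but for 7 of the 10 genes the arms overlap because the numbers differ.

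Of the SOXB1 genes, Sox1 had 22275 and 14039 in decitabine libraries, against 27201 and 19232 in vehicle libraries. The ratio of decitabine to vehicle was 0.819 within number 1 and 0.73 within number 2, and the 95% interval of the log2 difference was −1.12 to 0.38. Sox2 had 1073 and 458 in decitabine libraries, against 1431 and 770 in vehicle libraries, with ratios of 0.75 and 0.595. For both genes the lower vehicle library lay below the higher decitabine library. The interval of the log2 difference of Sox2, −1.92 to 0.76, was the widest of the 10.

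Among the SOXC genes Sox11 had 14317 and 18431 in decitabine libraries, against 18936 and 19810 in vehicle libraries, and the arms did not overlap. Its ratios were 0.756 within number 1 and 0.93 within number 2 (log2 difference −0.25, interval −0.67 to 0.16). Sox4 had 3749 and 4948 in decitabine libraries and 3598 and 4673 in vehicle libraries, with ratios of 1.04 and 1.06. Sox12 had 13380 and 10583 in decitabine libraries and 16517 and 11190 in vehicle libraries, with ratios of 0.81 and 0.946. The arms of Sox4 and Sox12 overlapped, with intervals of −0.48 to 0.62 for Sox4 and −0.81 to 0.42 for Sox12.

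Among the SOXD genes Sox13 had 1436 and 1131 in decitabine libraries, against 929 and 952 in vehicle libraries. Both decitabine libraries were above both vehicle libraries, and the log2 difference of 0.44 had an interval of −0.06 to 0.94 (adjusted p 0.89, limma). Sox5 had 2091 and 1373 in decitabine libraries and 2687 and 1904 in vehicle libraries, with ratios of 0.778 and 0.721. Sox6 had 145 and 183 in decitabine libraries and 85.3 and 157 in vehicle libraries, with ratios of 1.69 and 1.17. The arms of Sox5 and Sox6 overlapped.

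By arm means the SOXE genes had the highest ratios of decitabine to vehicle among the mouse members, 2.99 for Sox8 and 1.59 for Sox9, a ranking that was not tested. Sox8 had 45.2 and 67.2 in decitabine libraries, against 15.1 and 22.4 in vehicle libraries, a ratio of 2.99 within each number, from 116 reads in the decitabine arm and 37 in the vehicle arm. Its log2 difference was 1.53 ± 0.46 SE with an unadjusted p of 0.0227 and an adjusted p of 0.89 (limma), so it did not pass. Sox9 had 3877 and 2484 in decitabine libraries and 2679 and 1333 in vehicle libraries, with ratios of 1.45 and 1.86. The arms of Sox9 overlapped between numbers, and its log2 difference of 0.72 had an interval of −0.34 to 1.77.

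Of the 9 further Sox genes sought, Sox10, Sox21 and Sox30 were in the F1339 table, and 0 of these 3 were called. Sox21 had 1226 and 659 in decitabine libraries and 1134 and 543 in vehicle libraries, so that the arms overlapped. Sox30, a testis factor needed for sperm formation in mouse, had 22.6 and 15.4 in decitabine libraries and 2.16 and 0 in vehicle libraries. That is 39 reads in the decitabine arm and 2 in the vehicle arm, a ratio of 17.6 (95% counting interval 4.78 to 158, which covers counting error only). The lowest gene total in the F1339 table is 41 reads, and Sox30 reached 10 in its decitabine libraries only. Sox30 thus entered the test through its decitabine values, so the ratio and its interval are a description only. Sox10 had 23.6 and 10.6 in decitabine libraries and 8.64 and 10.7 in vehicle libraries. The transcript listed as Sox1ot, chosen after its values were seen, had 544 and 355 in decitabine libraries and 434 and 399 in vehicle libraries. Sox6os, chosen in the same way, had 19.7 and 34.6 in decitabine libraries and 14 and 30.2 in vehicle libraries.

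Of the F1339 partner and target lists, limma and edgeR called 0 genes among 9 partners and cofactors, 4 genes driven by SOX2, 4 neuronal, 7 cartilage and 3 glial genes tested. Median log2 differences were −0.05, 0.33, −0.36, 2.16 and 0.38 in that order, against −0.01 over all genes. The cartilage median rests on low counts. Vehicle means of the 7 cartilage genes were 6.34 to 39.4, apart from Col11a1 (760, log2 difference 0.25). The median is that of Col2a1, named after its values were seen. Col2a1 had 19.7 and 104 in decitabine libraries and 3.24 and 24.4 in vehicle libraries, so that its arms overlapped. DESeq2 called 2 of these genes, Dcx and Col9a3, which are named after their values were seen. Dcx, a microtubule protein of migrating neurons, had 5554 and 5361 in decitabine libraries, against 8236 and 9367 in vehicle libraries (adjusted p 0.0111 in DESeq2 and 0.89 in limma). Col9a3, a collagen IX chain, had 50.1 and 153 in decitabine libraries, against 8.64 and 10.7 in vehicle libraries (adjusted p 0.0286 in DESeq2 and 0.89 in limma). For both genes the arms did not overlap. Ctnnb1 had 50129 and 68471 in decitabine libraries and 50126 and 60157 in vehicle libraries, and the remodeller gene Chd7 had 7540 and 7992 in decitabine libraries and 7928 and 8142 in vehicle libraries. Nes had 5796 and 17174 in decitabine libraries and 3588 and 10085 in vehicle libraries, and the Hedgehog effector Gli2 had 435 and 1129 in decitabine libraries and 388 and 764 in vehicle libraries. For Nes and Gli2 the libraries numbered 2 were the higher in both arms. Tubb3 had 15757 and 12751 in decitabine libraries and 16892 and 16542 in vehicle libraries, and the lymphatic and neuronal factor Prox1 had 17491 and 11983 in decitabine libraries and 24913 and 13408 in vehicle libraries. Among cartilage genes Col11a1 had 563 and 1278 in decitabine libraries and 499.99 and 1020.5 in vehicle libraries, and the link protein gene Hapln1 had 2.95 and 269 in decitabine libraries and 0 and 12.7 in vehicle libraries. Hapln1 thus rested on decitabine library 2. The myelin gene Mbp had 15781 and 13544 in decitabine libraries and 22610 and 19469 in vehicle libraries, and Mia, which encodes a secreted cartilage and melanoma protein, had 196 and 271 in decitabine libraries and 149 and 209.8 in vehicle libraries.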

How the data were processed

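RNA-seq libraries of H146 and F1339 were grouped by line and treatment from the sample titles. The deposited values are a signal per gene and library, gene counts divided by a size factor by the authors (normalized counts, not logged), per the file headers and values. The submitters' processing notes list Trimmomatic 0.36, Subread 1.5.2 with featureCounts, STAR 2.5.2b and DESeq2, and name GRCh38 for every sample, the mouse ones included, so the mouse build is not known. Annotation and strand setting: not given in the sources used here. The deposited tables also hold the authors' log2 fold changes and p-values, which served only for a check of signs. The authors' fold matched a decitabine over vehicle ratio for 0 of 4854 genes called there in H146, where it runs the other way, and for 107 of 107 in F1339. All values in every library were whole multiples of the value of 1 read, within 0.001 read, and 0 per-sample columns were left out.

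A gene entered the test of a line if 2 or more of its 4 libraries reached 10, which all 10 members did in each line. Each line was fitted with limma 3.58.1 (R 4.3.3) on log2(value + 1), so fold changes of low genes are understated, with treatment as the only term, a variance trend and Benjamini-Hochberg adjustment over all genes tested. Ratios are of mean normalized counts. Counts recovered from the deposited values went into edgeR 4.0.16 and DESeq2 1.42.0 as alternatives. Other alternatives were pseudocounts of 5 and 0.5, no filter or one at 50, rescaling to the same upper quartile or total, no variance trend, a block for the replicate number, and leaving out single libraries. Alternatives for genes outside the 10 members were chosen after seeing the data. Positions and exon lengths are from GENCODE release 29 by Ensembl ID (20757 of 20863 IDs matched), and the sequences from RefSeq. The procedure was tested on simulated data.

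The members and the gene lists were chosen with earlier results of these data known. Named genes are the 10 members, the tested genes of 2 lists (9 further SOX genes and 5 transcripts that overlap or lie antisense to SOX genes), up to 3 called genes per list with the largest change or else the 2 most abundant, and the 3 genes nearest to the most changed member. Some genes of the neuroendocrine and glial lists are not reported here and were left out of the counts, medians and sums of those lists.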

Additional observations from a re-analysis of the deposited data

Results flagged for a closer look

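For SOX8 and SOX11 the arms were separated in opposite directions in the 2 lines, a difference between the lines that was not tested. Over all genes tested, the arms were separated for 31.5% (higher) and 30.6% (lower) in H146. In F1339 these shares were 17.9% and 18%. The share of genes separated in opposite directions in the 2 lines was not computed, so nothing particular to SOX genes is read from these 2. SOX8 had 96 and 87 in decitabine libraries and 97.3 and 165 in vehicle libraries of H146 (log2 difference −0.47), and 45.2 and 67.2 in decitabine libraries and 15.1 and 22.4 in vehicle libraries of F1339 (1.53). It was called in neither line. In H146 its arms were parted only by the narrow gap between 96 and 97.3, and the log2 difference was −0.09 without vehicle replicate 2. SOX11 had a log2 difference of 0.45 in H146, where it was called, and −0.25 in F1339, where it was not. Exposure time, species and table differ between the lines and cannot be told apart.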

How the results depend on the processing

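In H146 the 5 rises were called under every alternative that kept all 4 libraries except limma without a variance trend, where 2164 genes were called (1581 higher, 583 lower) and 1 member, SOX1, was higher. Leaving out a library gave 2521 to 5552 genes called (1534 to 3054 higher, 987 to 2498 lower) and 1 to 4 members (1 to 3 higher, 0 to 1 lower, that being SOX8). In F1339, DESeq2 called 107 genes (77 higher, 30 lower) and 0 members. The labels give no meaning to the replicate numbers. Differences between number 1 and number 2 correlated between arms across genes at 0.69 in F1339 and −0.03 in H146. With the replicate number as a block 1325 genes were called in F1339 (777 higher, 548 lower) and 4 members, of which 2 were higher (Sox8, adjusted p 0.0339, and Sox9, 0.006) and 2 lower (Sox2, 0.0314, and Sox5, 0.0435), while in H146 the block left 5192 genes and 5 members called. It also passed Sox30 (0.0139), Nes (0.0021), Hapln1 (0.0162), Mbp (0.0114), Dcx (0.0034) and Col9a3 (0.0028) in F1339. Sox30 entered the test through its decitabine libraries only. The cause of these changes was not tested.

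Log2 differences in F1339 that changed sign with a library left out ranged from −1.20 to 0.031 for Sox2, −0.13 to 0.27 for Sox4, −0.47 to 0.089 for Sox12, −0.33 to 0.73 for Sox21, −0.13 to 0.32 for Ctnnb1, −0.054 to 1.51 for Nes, −0.32 to 1.05 for Gli2, −0.34 to 0.84 for Col11a1 and −0.78 to 0.11 for Prox1. None of these was called without the block. Chd7 changed sign to 0.0021 with the same upper quartile and to 0.045 with the same total.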
